A study of Mus musculus with 12 samples.

Results

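Nuclear genes that encode subunits of the 5 complexes of oxidative phosphorylation (OXPHOS) were followed in glomeruli of 2 BALB/c substrains before and after adriamycin (ADR). Members were the gene symbols that begin with Nduf followed by a, b, c, s or v and a digit, that are Sdha, Sdhb, Sdhc or Sdhd, or that begin with Uqcr, with Cox4 to Cox8 or with Atp5, with Cox6b2 left out and with 10 or more counts summed over the 12 libraries. Of 26264 gene symbols in the count tables, 87 were members: 39 of complex I, 4 of complex II, 8 of complex III, 19 of complex IV and 17 of complex V. The symbols and the count minimum alone define the members. The members just above the count minimum were Cox7b2 with 16 counts, Ndufa11b with 21 and Cox8b with 29, and Cox8c, with 0 counts, lay below it. These 3 lowest members did not pass the filter on low counts, so 84 of 87 were tested. Of the 87, 4 are annotated as pseudogenes (Ndufa11b, Ndufb4c, Cox7c-ps1 and Ndufs5-ps), and their counts may hold reads of the parent genes.

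OXPHOS takes place in the inner mitochondrial membrane. Complex I (NADH dehydrogenase) and complex II (succinate dehydrogenase) pass electrons to ubiquinone, complex III passes them to cytochrome c, and complex IV (cytochrome c oxidase) passes them to oxygen. Complexes I, III and IV pump protons, and complex V (ATP synthase) uses the gradient to make ATP. Most subunits are nuclear genes, and their transcripts are abundant in the proximal tubule, a nephron segment that depends on oxidative metabolism, while podocytes, the epithelial cells that cover the glomerular capillaries, are less rich in mitochondria.

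Glomeruli were taken from male mice 8 weeks old of 2 inbred, albino substrains. BALB/cAjcl is called Ajcl here, and BALB/cByJcl is called ByJcl. Mice were studied untreated (baseline) or on Day 5 after 1 injection of ADR at 10 mg/kg, a DNA-damaging anthracycline that injures podocytes. Each of the 4 groups had 3 libraries, each of glomeruli that had been pulled out of the kidney by magnetic beads perfused into the vessels. Baseline and Day 5 counts stand in separate tables, so time point and table cannot be told apart.

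Total counts ran from 42198416 to 54687045 per library. All 13 podocyte markers had counts in every library, and their summed level ran from 12341 to 25688 CPM (counts scaled to library size by the TMM method). Tubular RNA was present in every library as well: the summed level of 20 proximal tubule markers ran from 3257 to 10916 CPM in Ajcl baseline, from 1157 to 5647 CPM in ByJcl baseline and from 1103 to 4825 CPM in ByJcl Day 5. In Ajcl Day 5 it was 15446 CPM in replicate 1 (A-ADR1) against 6262 and 4336 CPM in replicates 2 and 3. Over the 12 libraries, markers of glomerular endothelium summed to between 6240 and 10199 CPM, of mesangium to between 2240 and 3630, of thick limb and collecting duct to between 105 and 1955 and of immune cells to between 32.4 and 137.9. Of 5 erythroid markers, 4 globin genes were at 0 counts in all 12, while the other, Alas2, ran from 0.179 to 10.3 CPM. Why the globin genes had no counts was not tested, so their zeros are not read as a measure of red cell RNA. The study left A-ADR1 out for reduced glomerular purity. Tests here were fitted on the other 11 libraries and repeated on all 12. In these bulk samples, fewer cells of a type and less RNA per cell cannot be told apart.

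Promoters of OXPHOS subunits are known for binding sites of nuclear respiratory factor 1 (NRF1), of the ETS factor GABPA, of YY1 and of the oestrogen-related receptors (ERR). Windows from 250 bases before to 50 bases after the start of transcription were found in the RefSeq promoter table for 68 of the 87 members. On either strand, the NRF1 core GCATGCG was in the windows of 11 of 68 members (16.2%) against 4.01% of 27025 genes in the table. The ETS motif CCGGAAG was in those of 17 (25%) against 9.93%, the YY1 motif AAGATGG in those of 11 (16.2%) against 7.28%, and the ERR motif AAGGTCA in those of 8 (11.8%) against 5.38%. At least 1 of the 4 motifs was found for 36 of 68 members (52.9%) against 23.8% of genes. A match is a run of letters and not a measured binding site. Windows of 5 members named in the results below are shown 5′ to 3′ on the strand of the gene, with motif letters of either strand in capitals. Uqcr11, Ndufb7 and Ndufv2 were among the 3 members of smallest adjusted p in a contrast, Atp5e had the highest ratio in A-ADR1, and Atp5g2 had one of the lowest. They are mouse reference sequence from RefSeq, not that of the BALB/c substrains, taken from the RefSeq table (GRCm38.p6) and placed in GRCm39 by exact match. Uqcr11 lies at chr10:80242606-80242905 on the minus strand and holds the NRF1 and ETS motifs. Ndufb7 lies at chr8:84293137-84293436 on the plus strand and holds the ETS motif. Ndufv2 lies at chr17:66408505-66408804 on the minus strand and holds none of the 4. Atp5e lies at chr2:174305845-174306144 on the minus strand and holds the ETS and ERR motifs. Atp5g2 lies at chr15:102579433-102579732 on the minus strand and holds the NRF1 motif, whose capitals, as in Uqcr11, join overlapping matches on both strands. In GENCODE M39, the annotation used here for coordinates, the 5′ end of Atp5g2 is at 102580787, upstream of this window, which thus lies inside the gene.
Uqcr11: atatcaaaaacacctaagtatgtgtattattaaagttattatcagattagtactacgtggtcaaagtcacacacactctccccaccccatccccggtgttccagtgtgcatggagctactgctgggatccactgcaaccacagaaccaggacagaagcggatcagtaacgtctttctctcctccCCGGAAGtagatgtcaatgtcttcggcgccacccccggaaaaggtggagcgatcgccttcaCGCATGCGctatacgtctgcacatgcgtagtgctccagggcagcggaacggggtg
Ndufb7: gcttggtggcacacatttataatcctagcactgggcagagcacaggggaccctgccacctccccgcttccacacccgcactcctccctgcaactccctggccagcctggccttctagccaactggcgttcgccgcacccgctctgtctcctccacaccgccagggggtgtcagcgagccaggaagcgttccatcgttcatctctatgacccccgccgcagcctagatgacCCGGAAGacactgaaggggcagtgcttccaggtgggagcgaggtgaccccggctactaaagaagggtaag
Ndufv2: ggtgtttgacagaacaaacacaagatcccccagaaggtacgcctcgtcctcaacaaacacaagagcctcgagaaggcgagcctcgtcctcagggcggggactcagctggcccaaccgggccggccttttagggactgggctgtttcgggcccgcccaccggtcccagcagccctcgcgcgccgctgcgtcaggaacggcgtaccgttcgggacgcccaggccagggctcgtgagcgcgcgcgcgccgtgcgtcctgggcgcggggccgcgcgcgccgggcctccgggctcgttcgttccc
Atp5e: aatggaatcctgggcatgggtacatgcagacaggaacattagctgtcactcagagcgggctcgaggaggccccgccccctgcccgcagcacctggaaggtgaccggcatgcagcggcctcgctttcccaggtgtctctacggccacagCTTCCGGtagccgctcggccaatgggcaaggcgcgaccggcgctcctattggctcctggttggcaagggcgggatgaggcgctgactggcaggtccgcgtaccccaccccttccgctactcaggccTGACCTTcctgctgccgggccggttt
Atp5g2: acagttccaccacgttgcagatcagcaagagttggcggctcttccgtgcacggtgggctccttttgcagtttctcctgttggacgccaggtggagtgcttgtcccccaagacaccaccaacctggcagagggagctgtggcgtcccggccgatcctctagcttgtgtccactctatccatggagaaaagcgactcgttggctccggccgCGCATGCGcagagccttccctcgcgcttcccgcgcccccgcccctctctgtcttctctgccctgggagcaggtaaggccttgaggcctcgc

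The 36 tested members with a motif and the 30 without one had similar medians in every contrast, a difference that was not tested. Their median log2 fold change (log2FC) was −0.29 and −0.33 between the substrains at baseline, and 0.20 and 0.18 for ADR in ByJcl.

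Per length of transcript, levels differed widely within each complex. Over the 11 libraries, Atp5b, the catalytic beta subunit of the F1 head, had the highest level of complex V with 482 CPM per kb of transcript (mean over libraries), against 13.5 CPM per kb for Atp5mpl, a small membrane subunit. Cox4i1, the common form of the regulatory subunit IV, led complex IV with 314 CPM per kb, Ndufb8 led complex I with 146, Uqcr10 led complex III with 121 and Sdha, the flavoprotein of complex II, led that complex with 95.5. Among protein-coding members, the lowest were Ndufb2 in complex I (6.82 CPM per kb), Sdhb in complex II (21.8), Uqcr11 in complex III (23.0) and Cox7b2 in complex IV (0.00792). The order depends on the length used, because some canonical transcripts carry long untranslated parts. Per kb of coding sequence, Uqcr11 was the highest of complex III, with 375 CPM per kb, and Ndufa1, Sdhc, Cox6c and Atp5b led the other complexes.

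Where a subunit has tissue isoforms, the common form was the higher one. Cox4i1 stood at 314 CPM per kb of transcript and Cox4i2, the form known from lung and oxygen-sensing cells, at 5.91. Cox6a1 stood at 274 and its heart and muscle form Cox6a2 at 0.368. Cox7a2 stood at 112, Cox7a2l, a supercomplex assembly factor, at 89.8 and the muscle form Cox7a1 at 4.02. Cox8a stood at 256 and the muscle form Cox8b at 0.0267, the latter from 29 counts in all. Ndufa4, once counted with complex I and now with complex IV, stood at 253 and its hypoxia-induced paralogue Ndufa4l2 at 27.5. Among tested members, Cox6a2 had the largest coefficient of variation over the 3 ByJcl baseline libraries, 69.8%, at levels of 0.0430, 0.210 and 0.291 CPM.

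At baseline, 0 of 84 tested members passed the test between ByJcl and Ajcl, and the summed levels of the 2 groups overlapped. The summed level of the 87 members was 9871, 6873 and 9922 CPM in the 3 Ajcl libraries and 6950, 7089 and 7193 CPM in the 3 ByJcl libraries. Replicates 1 and 3 of Ajcl lay above every ByJcl library and replicate 2 lay below every one. The Ajcl mean was 8889 ± 1746 CPM (SD, n = 3). That of ByJcl was 7078 ± 122 CPM (SD, n = 3). Over the 78 members with a mean of 5 CPM or more, the median coefficient of variation was 21.3% in Ajcl baseline and 5.26% in ByJcl baseline.

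**Figure D1:**
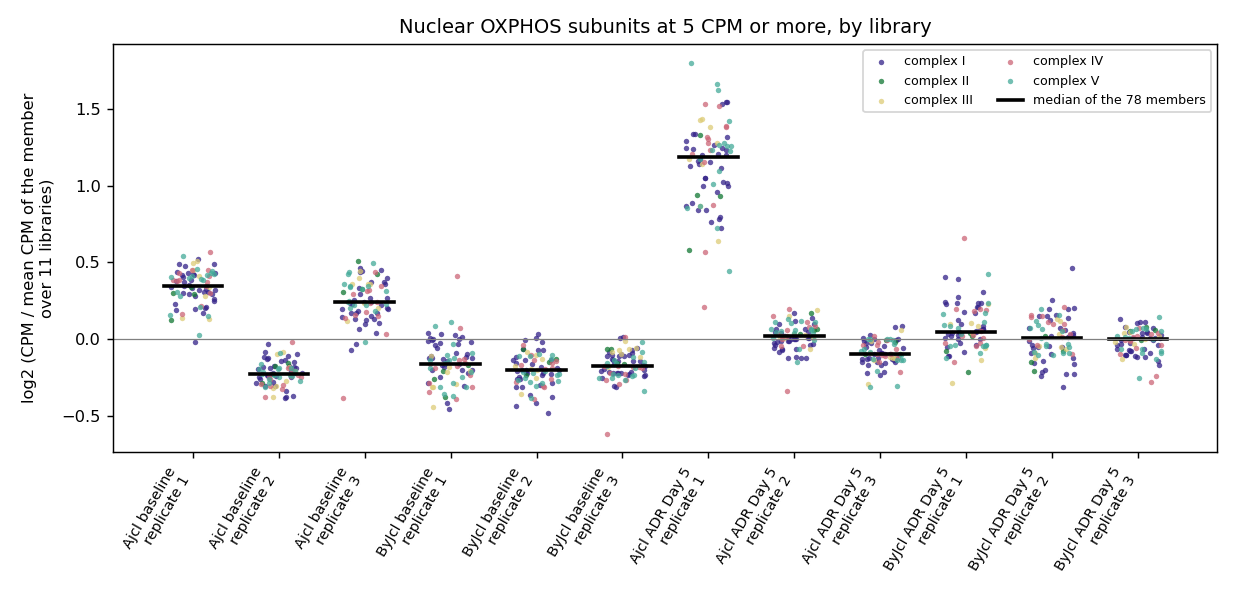
Each point is 1 of the 78 members with a mean of 5 CPM or more, plotted by library (horizontal) as log2 of its CPM over its own mean in the 11 libraries of the fit (vertical), coloured by complex, and the bar is the median. The 2 high Ajcl baseline libraries and A-ADR1 stand above the rest, and members of all 5 complexes move together within a library.

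The median log2FC of the 84 tested members, ByJcl over Ajcl, was −0.30 against 0.01 for all 17002 genes, and 81 of 84 lay below 0. With the quasi-likelihood test of edgeR, adjusted by Benjamini-Hochberg over all genes, 0 of 84 were called at an adjusted p below 0.05, as were 0.159% of all genes. DESeq2 also called 0 members, with its share of all genes not given here. At an unadjusted p below 0.05 there were 37 of 84 members, against 8.34% of all genes. Members moved together within a library, so counts of members, here and in the other contrasts, are not of independent observations. In 6 of 84 members (Atp5c1, Atp5j, Ndufa10, Ndufb3, Ndufs4 and Uqcrb) every ByJcl library lay below every Ajcl library, against 6.43% of all genes. The 5 complexes had similar medians, from −0.26 in complex I over −0.30 in complexes II and III and −0.32 in complex IV to −0.35 in complex V.

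The 3 members with the smallest adjusted p at baseline were Ndufa10, Cox7b and Atp5o. Ndufa10, an accessory subunit of the membrane arm of complex I, stood at 77.7, 60.9 and 89.7 CPM in Ajcl and at 52.5, 59.2 and 55.4 CPM in ByJcl, with a log2FC of −0.42 ± 0.12 (SE, adjusted p = 0.503). Cox7b, a small subunit of complex IV, stood at 99.7, 65.1 and 93.3 CPM in Ajcl and at 65.7, 57.2 and 61.3 CPM in ByJcl, with a log2FC of −0.46 ± 0.14 (SE, adjusted p = 0.515). Atp5o, a part of the stalk that holds the F1 head in place, stood at 129.6, 88.3 and 123.6 CPM in Ajcl and at 88.7, 82.7 and 78.2 CPM in ByJcl, with a log2FC of −0.42 ± 0.13 (SE, adjusted p = 0.515). In each of these, replicate 2 was the low Ajcl library, and for Cox7b and Atp5o it fell within the ByJcl range. Outside the general direction lay Ndufa4l2 (log2FC 0.12) and Atp5g2 (0.05), a gene of the membrane-embedded c ring, together with the pseudogene Ndufs5-ps (0.05). Of the proximal tubule markers, 20 of 20 had a log2FC below 0, with a median of −0.90 and 0 calls, and Ajcl replicate 2 had the lowest tubular sum of its group. The median was −1.34 for 11 markers of thick limb and collecting duct, 0.22 for 13 of podocytes, 0.11 for 11 of endothelium, 0.21 for 7 of mesangium and 0.75 for 8 of immune cells, and Alas2 had −0.39, with 0 calls in each of these lists. With the tubular marker level as a covariate, the members' median was −0.25, and 14 of 84 had an unadjusted p below 0.05 against 7.38% of all genes. The tubular sums ran from 3257 to 10916 CPM in Ajcl and from 1157 to 5647 CPM in ByJcl, so tubular content and substrain cannot be fully told apart. The part of tubular content in the members' level was not tested. Without Ajcl replicate 2, the median was −0.45 and 2 members, Atp5g3 and Cox5a, were called lower in ByJcl, as were 0.16% of all genes in either direction.

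**Figure D2:**
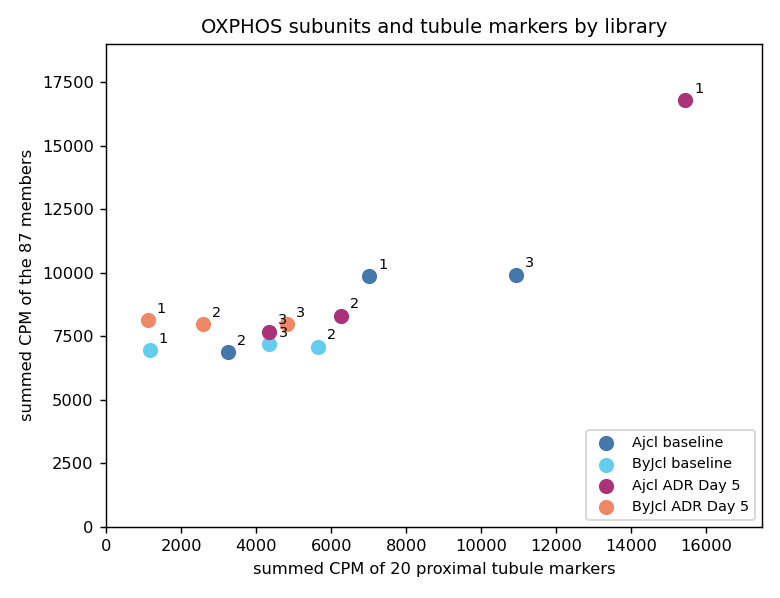
The summed CPM of the 87 members (vertical) is plotted against the summed CPM of 20 proximal tubule markers (horizontal) for the 12 libraries, with replicate numbers beside the points. Ajcl baseline replicates 1 and 3 and A-ADR1 are highest on both axes, while the ByJcl Day 5 libraries, between 7977 and 8148 CPM, differ little in member level over tubular sums from 1103 to 4825 CPM.

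After ADR in ByJcl, 1 of 84 tested members was called, and the summed level of the members did not overlap between baseline and Day 5. No test was run on the members as a group. The summed level was 8148, 7977 and 7990 CPM on Day 5, against the 6950 to 7193 CPM of baseline, so that every Day 5 library lay above every baseline library. The mean was 8038 ± 94.9 CPM (SD, n = 3) on Day 5. The median log2FC was 0.20 against 0.01 for all genes, and 74 of 84 members lay above 0. By edgeR's quasi-likelihood test 1 of 84 members was called, while 10.6% of all genes were. DESeq2 called 2, against 15.8% of all genes. The number by edgeR was 0 over all 12 libraries, where 7.21% of all genes were called. It was 0 without any 1 of the 3 ByJcl baseline libraries, against 4.97%, 4.32% and 6.29% of all genes without replicates 1, 2 and 3, and 0 without ByJcl Day 5 replicate 2, against 4.05%. Leaving out Ajcl baseline replicate 2 gave 8 members against 10.3% of all genes, and leaving out Ajcl baseline replicate 1 gave 3 against 12.1%. With RLE (DESeq2-type) size factors 2 members were called against 10.6% of all genes, with the proximal tubule covariate 2 against 13.8%, with the replicate number as a block 2 against 9.36%, and with the 2 compared groups alone 7 against 10.1%. At an unadjusted p below 0.05 there were 8 of 84 members, against 26.8% of all genes. In 44 of 84 members every Day 5 library lay above every baseline library, against 18.0% of all genes. These were 16 members of complex I, 2 of complex II, 4 of complex III, 11 of complex IV and 11 of complex V. None lay below in the same way, against 15.1% of all genes. Of the proximal tubule markers, 14 of 20 had a log2FC below 0, with a median of −0.36 and 0 calls. Podocyte markers fell, with 11 of 13 called lower and 1, Cdkn1c, called higher. Mesangial markers summed to between 2384 and 2840 CPM at baseline and to between 2715 and 3630 CPM on Day 5, with 1 of 7, Serpine2, called higher (log2FC 0.87) and a median log2FC of 0.10. Of 11 endothelial markers, Esam and Plvap were called higher and Ehd3 and Flt1 lower, and of 8 immune markers Cd68 was called higher (1.17). The median was −0.13 for endothelium, 0.15 for immune cells and −0.46 for thick limb and collecting duct, where 0 of 11 were called. Of the erythroid markers only Alas2 was tested, and it was called lower. The part of these cell types in the members' level was not tested.

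Ndufa5 and Ndufv2, both of complex I, were not called. Ndufa5, an accessory subunit of the matrix arm of complex I, stood in ByJcl at 32.5, 27.2 and 31.6 CPM at baseline and at 44.5, 42.3 and 37.9 CPM on Day 5, and the groups did not overlap. Its log2FC was 0.44 ± 0.13 (SE), and its adjusted p of 0.0524 lay just above the threshold. DESeq2 called it (adjusted p = 0.0199). Ndufv2, which carries an iron-sulfur cluster in the NADH-binding end of complex I, stood at 72.3, 62.4 and 67.3 CPM at baseline and at 94.1, 95.2 and 83.6 CPM on Day 5, with a log2FC of 0.42 ± 0.16 (SE, adjusted p = 0.112). Other subunits varied. The catalytic F1 subunits Atp5a1 and Atp5b had a log2FC of 0.09 and 0.12, Uqcrc1 had 0.16 and the Rieske protein Uqcrfs1 0.06, Ndufs1 had 0.21 and Ndufv1 0.11, Cox5a and Cox5b had 0.32 each, Sdhb had 0.22 and Sdha −0.03. None of these subunits was called.

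**Figure D3:**
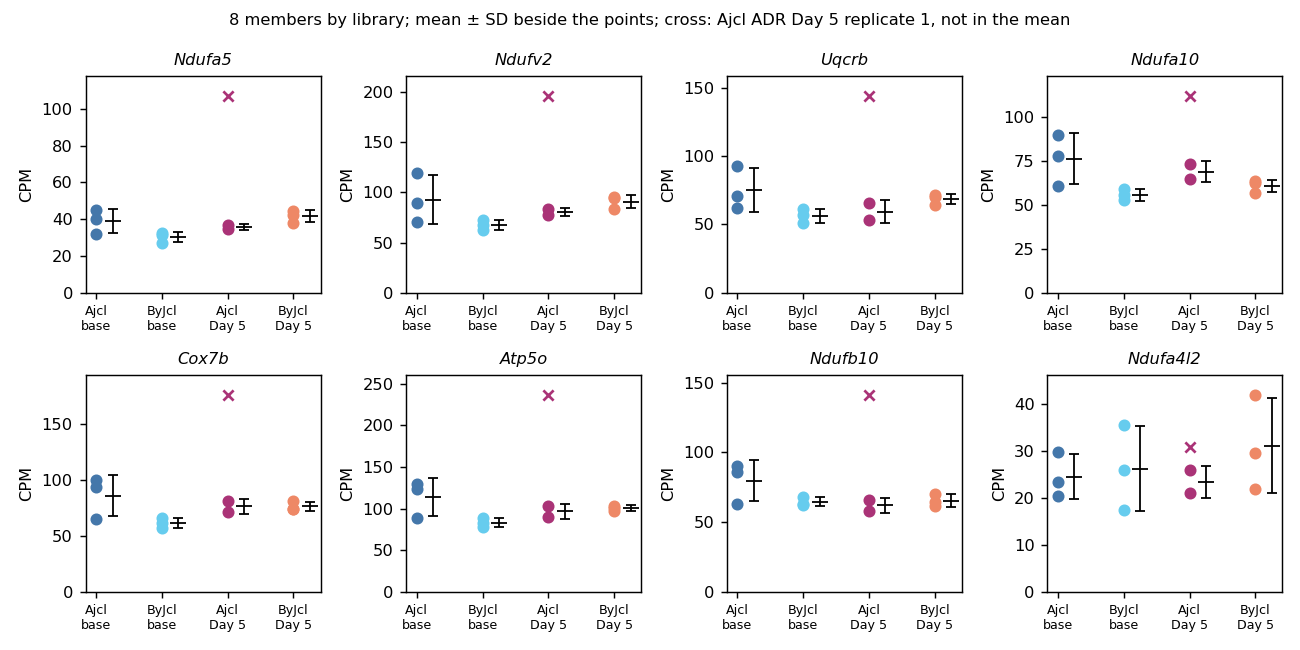
CPM of 8 members (vertical, from 0) in the 4 groups (horizontal), each point a library, with the mean and SD of the fitted libraries beside them and A-ADR1 as a cross outside the mean. In Ndufa5 and Ndufv2 the ByJcl Day 5 libraries lie above the ByJcl baseline libraries, and A-ADR1 is the highest library in every panel but that of Ndufa4l2.

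After ADR in Ajcl, the direction of the group depended on 1 library. The summed level was 8307 and 7682 CPM in replicates 2 and 3, both inside the baseline range, and 16791 CPM in A-ADR1. Over the 11 libraries, the median log2FC was −0.16 against −0.01 for all genes, with 81 of 84 members below 0. The median was −0.07 without Ajcl baseline replicate 1 and −0.31 without Ajcl baseline replicate 2, the ends of its range when 1 library was left out in turn. By edgeR's quasi-likelihood test 0 of 84 members were called, as were 0.312% of all genes. DESeq2 called 0 members, with its share of all genes not given here. An unadjusted p below 0.05 was reached by 1 member, against 9.8% of all genes. With A-ADR1 put back, the median was 0.35, 83 of 84 members lay above 0, and again 0 were called. The share of all genes called in that fit is not given here. Smallest in adjusted p were Ndufb10, Uqcr11 and Ndufb3. Ndufb10, a membrane-arm subunit of complex I, stood at 85.8, 63.0 and 90.0 CPM at baseline and at 65.8 and 58.2 CPM on Day 5, with 141.4 CPM in A-ADR1. Its log2FC was −0.35 ± 0.14 (SE, adjusted p = 0.405), and 0.15 over all 12 libraries. Uqcr11, the smallest subunit of complex III by coding length, had a log2FC of −0.25 ± 0.12 (SE, adjusted p = 0.544), and Ndufb3 one of −0.24 ± 0.12 (SE, adjusted p = 0.560), with 0.29 and 0.28 over all 12. Without Ajcl baseline replicate 1 they were −0.17 for Uqcr11 and −0.14 for Ndufb3, and with 1 library left out in turn Ndufb10 ran from −0.48 to −0.26, Uqcr11 from −0.35 to −0.17 and Ndufb3 from −0.32 to −0.14. Proximal tubule markers had a median log2FC of −0.32 over the 11 libraries and 0.17 over the 12, and 0 of 20 were called. Over the 11 libraries the median was −0.07 for 11 markers of thick limb and collecting duct, −0.46 for 13 of podocytes, 0.04 for 11 of endothelium, 0.13 for 7 of mesangium and −0.14 for 8 of immune cells, with 0 calls in each of these lists. Alas2, an enzyme of haem synthesis in red cell precursors and the only erythroid marker tested, was called lower on Day 5 (log2FC −3.46, adjusted p = 0.0272). The part of these cell types in the members' level was not tested.

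On Day 5, 0 of 84 tested members passed the test between the substrains, and the direction of the median turned with A-ADR1. In the 11 libraries, the median log2FC, ByJcl over Ajcl, was 0.07 against 0.00 for all genes, and 58 of 84 members lay above 0. It was 0.02 without Ajcl Day 5 replicate 3 or without ByJcl Day 5 replicate 1, and 0.12 without Ajcl Day 5 replicate 2. By edgeR's quasi-likelihood test 0 of 84 were called, as were 0.165% of all genes. At an unadjusted p below 0.05 there were 0 members, against 14.0% of all genes. DESeq2 called 0 members, with its share of all genes not given here. With A-ADR1 the median was −0.45, only 1 of 84 members lay above 0, and 8 had an unadjusted p below 0.05 against 18.3% of all genes. The smallest adjusted p belonged to Ndufb7, a membrane-arm subunit of complex I, with 53.1 and 49.6 CPM in Ajcl and 71.2, 60.5 and 55.1 CPM in ByJcl. Its log2FC was 0.28 ± 0.16 (SE, adjusted p = 0.455). Without ByJcl Day 5 replicate 1 it was 0.17, and it ran from 0.17 to 0.36 when 1 library was left out in turn. Atp5d, a subunit of the rotor that turns in the F1 head, had a log2FC of 0.22 ± 0.14 (SE, adjusted p = 0.502), with 0.16 to 0.30 when 1 library was left out. Over the members of 5 CPM or more, the SE of a single member's log2FC in the 11 libraries had a median of 0.15 and reached 0.31. Markers of thick limb and collecting duct summed to 1062 and 813.8 CPM in Ajcl replicates 2 and 3 and to 105, 530.3 and 397.1 CPM in ByJcl, so the groups did not overlap. Their median log2FC was −1.58, with 0 of 11 called. Proximal tubule markers summed to 5299 CPM (mean, n = 2) in Ajcl and 2838 CPM (mean, n = 3) in ByJcl, in ranges that overlapped, with a median log2FC of −0.90 and 0 of 20 called. The median was −0.65 for 13 podocyte markers, 0.12 for 11 of endothelium, 0.20 for 7 of mesangium and 1.13 for 8 of immune cells, and Alas2 had −0.43, with 0 calls in each of these lists. Their part in the members' level was not tested.

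The difference between the substrains' responses to ADR was positive for most members and called for none. The interaction had a median of 0.36 on the log2 scale against 0.00 for all genes, and 81 of 84 members lay above 0. It is built from the same libraries as the baseline difference of −0.30, the ByJcl response of 0.20 and the Ajcl response of −0.16, and is no further evidence beside them. By edgeR's quasi-likelihood test 0 of 84 members were called, as were 0.0% of all genes. DESeq2 called 0 members, with its share of all genes not given here. At an unadjusted p below 0.05 there were 15 of 84 members, against 8.02% of all genes. Ndufa5 had 0.55 ± 0.19, Uqcrb, a subunit of complex III near its ubiquinone site, had 0.60 ± 0.22 and Ndufv2 had 0.61 ± 0.24 (SE, adjusted p = 0.620 for each). Over all 12 libraries the median was −0.13, with 9 of 84 members above 0, and these 3 members stood at −0.15, 0.06 and 0.07.

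**Figure D4:**
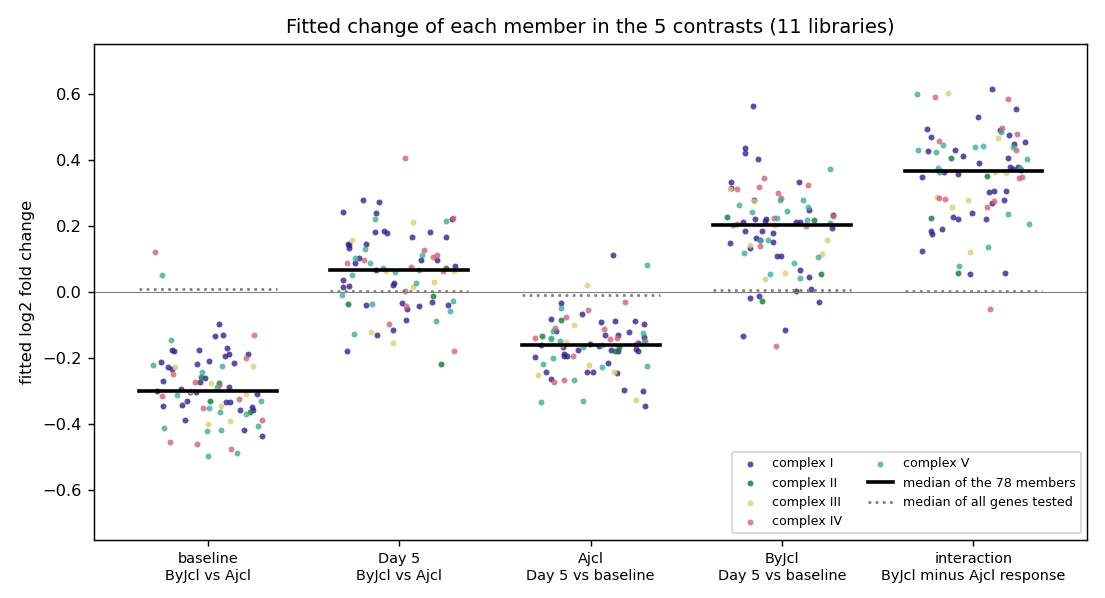
Fitted log2FC (vertical) of the 78 members with a mean of 5 CPM or more in the 5 contrasts (horizontal) over 11 libraries, coloured by complex, with the members' median as a solid bar and that of all genes tested as a dotted one. The members lie mostly below 0 at baseline, with a median of −0.30, and mostly above it after ADR in ByJcl, with 0.20.

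A-ADR1, outside the fit, was the highest of the 12 libraries for 82 of 84 tested members, against 21.8% of all genes. The exceptions were Cox4i2 and Ndufa4l2, which were highest in ByJcl Day 5 replicate 1. Over the 78 members of 5 CPM or more, the ratio of A-ADR1 to the mean of Ajcl Day 5 replicates 2 and 3 had a median of 2.35, against 0.986 for all genes of that level with a coding length. It ran from 1.31 for Ndufa4l2 to 3.82 for Atp5e, the epsilon subunit of the F1 head, which stood at 262.5 CPM in A-ADR1 and at 76.9 and 60.6 CPM in the other 2. By complex the median ratio was 2.31 in I, 1.94 in II, 2.45 in III, 2.43 in IV and 2.37 in V. The 20 proximal tubule markers had a median ratio of 2.43 and podocyte markers one of 0.693.

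Within the members, the ratio was higher in those with short coding sequences. The 18 members of up to 300 coding bases had a median of 2.73, the 40 members of over 300 and up to 600 bases had 2.32, and the 20 longer ones had 1.83. Spearman's rho was −0.62 with coding length and −0.30 with transcript length over the 78 members, a description across genes measured in the same 3 libraries. All genes of that level showed the same order, with medians of 1.67, 1.42 and 0.945 in the same 3 classes and a rho of −0.59 with coding length and −0.62 with transcript length over 11065 genes. The members are shorter than most genes, with a median coding length of 423 bases against 1404. How length and tubular content each bear on the ratio was not tested.

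**Figure D5:**
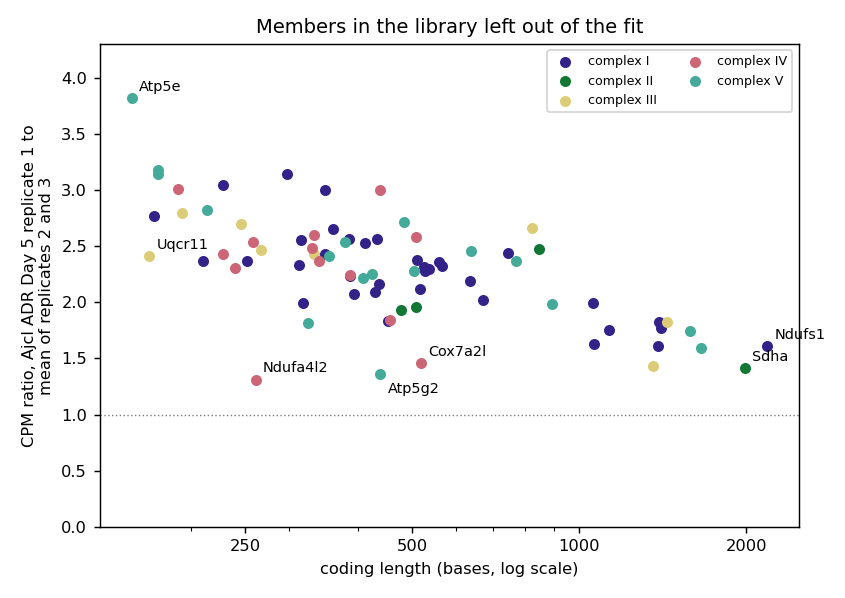
Ratio of CPM in A-ADR1 to the mean of Ajcl Day 5 replicates 2 and 3 (vertical) against coding length in bases (horizontal, log scale) for 78 members, coloured by complex, with the dotted line at a ratio of 1. Every ratio lies above 1, Atp5e is highest at 3.82, and the longest members, such as Ndufs1 (1.61) and Sdha (1.42), lie in the lower part.

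Other genes of mitochondrial energy metabolism were described beside the members, and their calls in ByJcl after ADR stand against the 10.6% of all genes called there. Cyc1, Cycs and Ndufab1, which belong to OXPHOS but not to the symbols chosen, had a median log2FC of −0.34 at baseline and 0.14 for ADR in ByJcl, with 0 of 3 called in either. Of 45 assembly factors tested, 2 were called in ByJcl after ADR, both higher: Sdhaf1, which brings iron-sulfur clusters to complex II (log2FC 1.12, adjusted p = 0.0103), and Pet100, a factor for complex IV (0.54, adjusted p = 0.0461). Their list had a median of −0.13 at baseline and 0.02 for ADR in ByJcl. Of 18 genes of the TCA cycle and pyruvate dehydrogenase none was called in any contrast, and the list lay at −0.25 at baseline, where 18 of 18 were lower in ByJcl. Of 15 genes of fatty acid oxidation, Hadhb, of the mitochondrial trifunctional protein, was called higher in ByJcl after ADR (0.40, adjusted p = 0.0356). Among 14 regulators of mitochondrial genes, Ppargc1b, a coactivator of ERR, was called lower there (−0.75, adjusted p = 0.00362), and among 15 glycolytic genes Eno1 (0.54, adjusted p = 0.0186) and Pfkp (0.70, adjusted p = 0.0288) were called higher and Pfkm (−0.44, adjusted p = 0.0383) lower. No gene of these lists was called in the other 4 contrasts.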

How the data were processed

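RNA of isolated glomeruli was poly(A)-selected and sequenced as paired reads in 12 libraries. For the deposited counts, the authors used Trimmomatic for trimming, STAR for alignment to GRCm39 and featureCounts for counting, and the values are whole-number counts per gene symbol, not normalized. The annotation and strand setting of the counting are not given in the sources used here. Most counts from 1 to 49 were even numbers (77.1% in the library with the lowest share), so 2 counts may come from 1 read pair, and precision rests on the spread between libraries. The labels do not say which animals gave which library, so p-values measure the spread between these samples.

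Symbols were joined over both tables. Counts were fitted with edgeR 4.0.16 in R 4.3.3 (filterByExpr, TMM, quasi-likelihood test, 4 group terms, 17002 genes, 7 residual degrees of freedom) over 11 libraries. A-ADR1 was left out, as in the study. For 5 contrasts, Benjamini-Hochberg adjustment ran over all genes, with calls at an adjusted p below 0.05. The SE of a log2FC was derived from the test, as its absolute value divided by the square root of the F statistic. The script was tested on simulated data. CPM values use TMM factors of all 12 libraries. Coordinates and lengths (canonical transcript) come from GENCODE M39 on GRCm39, in which 71 members matched by symbol and 16 under a later name.

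The members and gene lists were chosen with earlier results of these data known. Named were the called members, or the 3 of smallest adjusted p in a contrast with fewer than 3 calls, fixed isoform groups and a fixed list of subunits, and the members of highest and lowest level per length. Atp5if1, also on that list, is not a member, and 1 item is not reported here. Atp5c1, Atp5j, Ndufs4, Atp5g3, Atp5g2 and Ndufs5-ps were named after their values were seen. Alternatives were all 12 libraries, DESeq2 1.42.0, RLE size factors, 2 other filters, a replicate block, the mean log2 CPM of proximal tubule markers as covariate, the compared groups alone and leaving out each library. Of the 13 genes encoded by mitochondrial DNA, 0 were found by symbol in the count tables, so they were not analysed here. Marker lists of other cell types were read as summed levels and, where given, by the log2FC and calls of their genes. Python 3.11.15 with pandas 2.3.3 made the tables, and matplotlib 3.10.9 the figures.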

Additional observations from a re-analysis of the deposited data

Results flagged for a closer look

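The summed level of the members in A-ADR1, a library outside the fit, was 16791 CPM, above each of the 6 baseline libraries, of which the highest had 9922 CPM. The proximal tubule markers summed to 15446 CPM and the thick limb and collecting duct markers to 1955 CPM in the same library, each the highest of the 12. The part of tubular content in the members' level was not tested.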

How the results depend on the processing

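Number of members called and median log2FC were recomputed in each contrast under the 19 alternatives that could be run there (18 for the interaction, which has no fit on the compared groups alone), 188 values in all, of which 172 kept within 1.5 times the count or within the spread between libraries. With A-ADR1 put back, the median moved to −0.45 between the substrains on Day 5, to 0.35 for ADR in Ajcl and to −0.13 for the interaction. On the log2 scale, single members also turned in that fit: on Day 5 Ndufb7 to −0.32 and Atp5d to −0.29, in Ajcl Ndufb10 to 0.15, Uqcr11 to 0.29 and Ndufb3 to 0.28, and in the interaction Ndufa5 to −0.15. The cause was not tested. For ADR in ByJcl, 1 member was called. The number was 0 over all 12 libraries (7.21% of all genes called in that fit), 2 by DESeq2 (15.8%), with RLE size factors (10.6%) and with the proximal tubule covariate (13.8%), and 7 with the compared groups alone (10.1%). Leaving out 1 library gave 0 to 8 called members in ByJcl (8 without Ajcl baseline replicate 2, 3 without Ajcl baseline replicate 1, with 10.3% and 12.1% of all genes called) and 0 to 2 at baseline, 2 without Ajcl baseline replicate 2. In the other contrasts the number was 0 in each of these, and the shares of all genes called in those fits are not given here. Medians without 1 library ran from −0.45 to −0.22 at baseline, from 0.02 to 0.12 on Day 5, from −0.31 to −0.07 in Ajcl, from 0.16 to 0.23 in ByJcl and from 0.28 to 0.51 for the interaction. Libraries that share a replicate number did not pair: the correlations of their deviations ran from −0.306 to 0.405, and in 0 of 6 pairs of groups were all 3 above 0.1. With the replicate block, 2 members were called in ByJcl against 9.36% of all genes, Ndufa5 among the 2 (adjusted p = 0.0434). The number was 0 in the other contrasts, where that share is not given here. Which of depth and number of libraries limits the calls was not tested. The fit held 2 libraries of Ajcl Day 5 and 3 of each other group.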
